A study of Mus musculus with 13 samples.

Results

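The values below follow 10 secreted factors that muscle cells are known to make: the cytokines Il33, Il6, Lif and Il15, the chemokines Ccl2, Ccl7, Cxcl1, Cxcl5 and Cxcl12, and the macrophage growth factor Csf1. They were taken by gene symbol, 10 of the 23366 genes in the count table, and Il33 was singled out because it was already known to be lower in wild-type myotubes than in wild-type myoblasts in these libraries. That contrast therefore describes the set and is given without a test. The other comparisons, of genotype within a cell type and of differentiation in mutant cells, were not the contrast named in that choice. The genotype comparisons use the same wild-type libraries, however, so those of Il33 are not independent of it. The genes were also chosen with earlier results of these data known.

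RNA was sequenced from primary mouse muscle cells of mixed strain, isolated from hind limbs at postnatal day 2 to 3. Mutant cells (dICR/dICR) lacked the imprinting control region between Igf2 and H19 on both chromosomes, and were set against wild-type cells without the deletion. There were 2 libraries of dICR/dICR myotubes, 5 of wild-type myotubes, 2 of dICR/dICR myoblasts and 4 of wild-type myoblasts. Myoblasts of both genotypes grew in F10 medium that held FGF (2.5 µg/ml) and calf serum (10%), and myotubes of both genotypes had spent 24 h in DMEM with 1% horse serum. It is not stated if replicates came from different animals or cultures. The p-values therefore cover only the spread among these samples, which may be technical. Wild-type myoblasts 1 and 2, and likewise 3 and 4, were much closer to each other than across these pairs. Their n = 4 may thus overstate the number of independent samples. Wild-type myotubes 4 and 5 were also closer to each other than to the rest of their group, so the same may hold there.

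Total counts lay between 5.31 and 56.44 M (mega) counts. They formed a deep set of 7 libraries (35.56 to 56.44 M) and a shallow set of 6 libraries (5.31 to 10.91 M), which is a division made from the data and not a group of the study. Illumina and SOLiD sequencing are both described, without a platform for each library, so whether the depth sets follow the platforms is not known here. Small nucleolar RNA genes took 0.012 to 0.133% of counts in the deep set and 2.786 to 7.131% in the shallow set. Both dICR/dICR myotube libraries were deep and both dICR/dICR myoblast libraries were shallow, so depth and stage cannot be told apart within the mutant cells. Wild-type myotubes 1 to 3 and wild-type myoblasts 1 and 2 were deep. The 4 shallow wild-type libraries also had 0.153 to 0.462 CPM (counts per M counts of the adjusted library total) of the Y-linked gene Ddx3y, against 14.5 to 176 CPM in the other 9 libraries. In wild-type cells, depth set and Ddx3y level thus cannot be told apart. The shallow dICR/dICR myoblasts did not share the low level, with 14.5 and 63.1 CPM of Ddx3y. Every value below from a depth term or from within the shallow set carries this limit. H19, which lies beside the deletion, had 52.4 to 71.5 CPM in the 4 dICR/dICR libraries and 2340 to 40500 CPM in the 9 wild-type libraries. The myotube markers summed to 10500 and 20400 CPM in dICR/dICR myotubes, against 26800 to 42700 CPM in wild-type myotubes. In dICR/dICR myoblasts these sums were 1670 and 3310 CPM, and in wild-type myoblasts 2480 to 11000 CPM, where the 2 shallow libraries held the 2 highest sums.

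Muscle cells send signals to the immune cells and vessels around them. Il33 is a nuclear protein of the IL-1 family that is released as an alarm signal and binds Il1rl1 together with Il1rap. Il6 and Lif share the signalling chain Il6st, and through it activate Stat3. Chemokines are named for the spacing of their first cysteines: the CC members Ccl2 and Ccl7 recruit monocytes through Ccr2, the CXC members Cxcl1 and Cxcl5 recruit neutrophils through Cxcr2, and Cxcl12 guides migrating cells through Cxcr4. Csf1 maintains macrophages through Csf1r, and Il15 is presented with Il15ra to T cells and natural killer cells.

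Measured per length of merged exon, Il33 and Csf1 were the most abundant of the 10 transcripts in each group. In dICR/dICR myotubes, Csf1 had 9.66 ± 3.61, Il33 7.1 ± 6.67 and Cxcl12 2.48 ± 0.868 CPM per kb (SD, n = 2). In wild-type myotubes, Csf1 had 11.1 ± 6.38, Il33 3.66 ± 1.25 and Lif 1.76 ± 1.03 CPM per kb (SD, n = 5). In dICR/dICR myoblasts, Il33 had 162 ± 81.7, Csf1 27.2 ± 7.68 and Cxcl12 10.7 ± 8.44 CPM per kb (SD, n = 2). In wild-type myoblasts, Il33 had 188 ± 178, Csf1 66.4 ± 30.4 and Cxcl12 3.67 ± 2.06 CPM per kb (SD, n = 4). Il33 and Csf1 were separated by more than their SDs in dICR/dICR myoblasts and not in the other 3 groups. The other 7 members lay between 0 and 1.79 CPM per kb in every group. All 10 passed the filter on low counts, but Il6 passed only through wild-type myotubes.

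**Figure D1:**
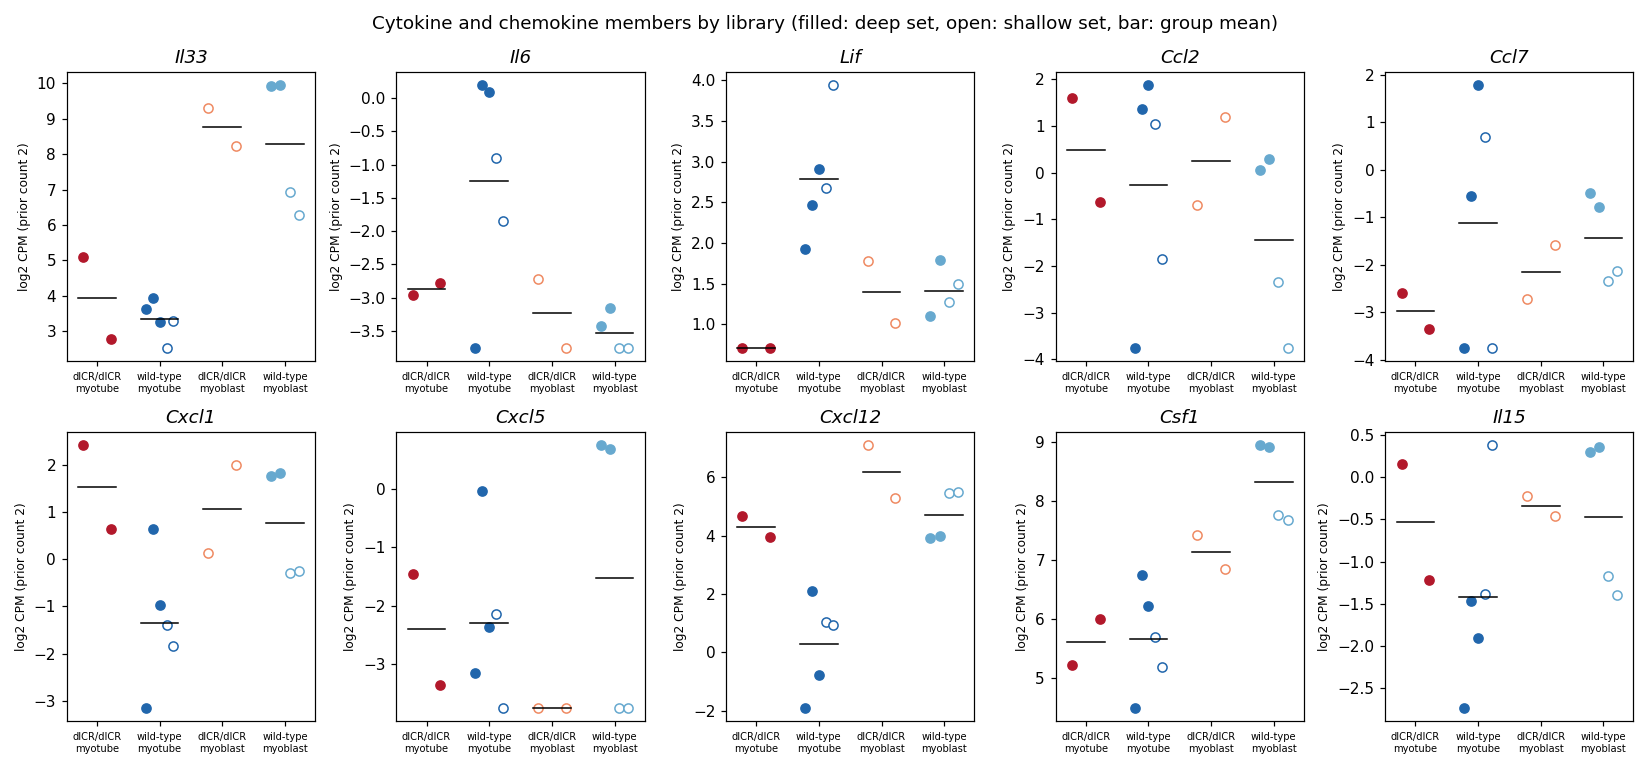
Level of each member in each library, as log2 CPM with a prior count of 2, with 1 panel per gene and its own vertical scale. Filled points are deep libraries, open points are shallow libraries and the bar is the group mean. Il33 and Csf1 lie lower in both myotube groups than in the myoblasts of the same genotype, and Cxcl12 lies higher in both dICR/dICR myotube libraries than in all 5 wild-type myotube libraries.

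In wild-type cells, Il33, Csf1 and Cxcl12 had lower levels in myotubes than in myoblasts, and Il6 and Lif had higher levels. These 5 of the 10 members were the ones on the called side of the threshold used elsewhere, as were 19.1% of the 16537 genes in the fit. Il6 is among them although it entered the fit only through wild-type myotubes, the higher group, and its libraries overlapped. The contrast was known when the genes were chosen, so this describes the set, is no test of it, and nothing is read from the count. The libraries of the stages did not overlap for 4 members, against 19% of all genes. The median log2 fold change was -1.44 over the members and 0.0198 over all genes.

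Start regions of these 5 genes are printed because they are the members that differed together by stage in wild-type cells. Each is 250 bases before to 50 bases after an annotated start, from RefSeq on the GRCm38.p6 assembly, 5′ to 3′ on the strand of the gene. Of the 10 members, 6 have an entry, and Il33 has 2 starts. Ccl2, Ccl7, Cxcl5 and Il15 have none in the table used. Capitals mark matches, on either strand, to the NF-kB consensus, the AP-1 consensus TGANTCA, the C/EBP core TTGCNNAA and the TATA box TATAAA. The regions are Il33 at chr19:29924863-29925162 (upstream start, plus strand) and chr19:29945540-29945839 (downstream start, plus strand), Csf1 at chr3:107760420-107760719 (minus strand), Cxcl12 at chr6:117168285-117168584 (plus strand), Il6 at chr5:30012864-30013163 (plus strand) and Lif at chr11:4257318-4257617 (plus strand). Il33, Csf1 and Cxcl12 are the lower members.
Il33 upstream start: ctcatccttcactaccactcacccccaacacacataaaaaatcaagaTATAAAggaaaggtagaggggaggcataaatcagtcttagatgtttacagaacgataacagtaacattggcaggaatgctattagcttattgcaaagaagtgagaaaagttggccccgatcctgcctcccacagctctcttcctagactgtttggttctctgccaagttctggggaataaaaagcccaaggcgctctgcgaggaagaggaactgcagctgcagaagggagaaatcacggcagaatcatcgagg
Il33 downstream start: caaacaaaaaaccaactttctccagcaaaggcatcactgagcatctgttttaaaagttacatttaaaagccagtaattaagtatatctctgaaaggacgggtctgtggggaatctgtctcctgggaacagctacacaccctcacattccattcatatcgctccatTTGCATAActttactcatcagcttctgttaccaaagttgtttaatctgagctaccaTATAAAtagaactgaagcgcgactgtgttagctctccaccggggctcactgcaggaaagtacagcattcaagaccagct
Csf1: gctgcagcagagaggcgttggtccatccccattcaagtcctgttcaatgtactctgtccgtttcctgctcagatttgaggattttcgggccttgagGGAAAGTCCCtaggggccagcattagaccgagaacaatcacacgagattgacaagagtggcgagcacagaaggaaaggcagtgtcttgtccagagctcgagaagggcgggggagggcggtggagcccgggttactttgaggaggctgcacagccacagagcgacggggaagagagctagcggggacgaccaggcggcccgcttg
Cxcl12: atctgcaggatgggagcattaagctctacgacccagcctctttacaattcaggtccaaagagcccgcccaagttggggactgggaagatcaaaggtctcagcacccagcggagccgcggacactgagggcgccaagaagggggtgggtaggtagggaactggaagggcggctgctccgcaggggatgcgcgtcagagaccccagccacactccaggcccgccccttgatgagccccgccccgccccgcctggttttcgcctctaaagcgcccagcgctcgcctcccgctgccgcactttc
Il6 and Lif are the higher members.
Il6: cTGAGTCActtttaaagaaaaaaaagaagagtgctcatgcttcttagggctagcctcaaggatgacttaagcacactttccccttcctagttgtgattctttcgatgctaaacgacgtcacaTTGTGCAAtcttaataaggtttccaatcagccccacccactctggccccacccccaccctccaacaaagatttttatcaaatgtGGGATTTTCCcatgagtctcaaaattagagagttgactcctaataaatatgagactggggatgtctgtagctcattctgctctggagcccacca
Lif: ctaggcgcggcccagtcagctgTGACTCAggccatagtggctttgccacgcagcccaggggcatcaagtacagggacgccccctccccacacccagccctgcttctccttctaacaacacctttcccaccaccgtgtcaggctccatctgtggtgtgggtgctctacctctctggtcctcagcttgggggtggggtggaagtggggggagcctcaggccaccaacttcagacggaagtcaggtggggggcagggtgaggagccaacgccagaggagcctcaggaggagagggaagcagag

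Il6 was the 1 region of these 6 that held NF-kB, AP-1 and C/EBP matches together, at bases 207 to 216, 2 to 8 and 123 to 130 counted from the first printed base. Lif held an AP-1 match at bases 23 to 29, and Csf1 an NF-kB match at bases 97 to 106 on the opposite strand. The downstream Il33 start held a C/EBP match at bases 166 to 173 and a TATA match at bases 222 to 227, and the upstream start a TATA match at bases 48 to 53. None of these letters occurred in the Cxcl12 region. Of 32851 start regions of the same length in the table, 4.5% held the NF-kB match, 7.8% AP-1, 10.8% C/EBP and 13.6% TATA. The E-box CAGCTG, the form that myogenic factors prefer, lay in the Lif region (bases 17 to 22) and in the upstream Il33 region (bases 262 to 267), against 16.3% of all regions. A match is a stretch of letters only and no binding was measured.

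Il33 differed between the stages in both genotypes and, among wild-type myoblasts, between the depth sets. It had 34.1 and 6.87 CPM in dICR/dICR myotubes, against 633 and 300 CPM in dICR/dICR myoblasts. Wild-type myotubes had 12.3, 15.4, 9.62, 5.69 and 9.78 CPM, against 982, 992, 122 and 77.7 CPM in wild-type myoblasts. The stages did not overlap in either genotype, and the 2 shallow wild-type myoblast libraries lay far below the 2 deep ones. The mutant myoblasts, both shallow, lay between those pairs.

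In dICR/dICR cells the log2 fold change of Il33 from myoblasts to myotubes was -4.51 ± 1.23 (SE) with an adjusted p of 0.117 in edgeR's quasi-likelihood test. A model with an added depth term, in which the wild-type libraries set the shift between deep and shallow, gave a log2 fold change of -6.47 ± 1.07 with an adjusted p of 0.00661. In wild-type libraries that shift goes with the Ddx3y difference, which the mutant libraries did not share, so the depth term may not fit the mutant cells. DESeq2, with no depth term, gave -4.64 with an adjusted p of 0.000675. Leaving out single libraries gave values between -6.09 and -3.78, with adjusted p between 0.0863 and 0.458, so the sign held while the call depended on the model. For the same change, wild-type cells had -5.68 over all libraries, -6.31 within the deep set and -3.70 within the shallow set, as a description. Whether the change differed between genotypes was not tested, because it contains the contrast used to choose Il33.

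Between genotypes, Il33 depended on which wild-type libraries were used. Those libraries also entered the contrast for which Il33 was singled out, so its genotype values and p-values are a description. Over all libraries it was -0.22 ± 0.93 on the log2 scale in dICR/dICR against wild-type myoblasts (edgeR, adjusted p = 0.941). Against the 2 shallow wild-type myoblast libraries alone it was 2.23, with an adjusted p of 0.0559 in the model of all 13 libraries. When only the 4 libraries compared were fitted the adjusted p was 0.0124, in a fit that called 23.9% of its genes. When all shallow libraries were fitted together it was 0.00852, in a fit that called 21.6%. The 2 shallow wild-type myoblast libraries also had higher sums of myotube markers, 10500 and 11000 CPM, against 3310 and 1670 CPM in dICR/dICR myoblasts. They had the low Ddx3y level as well. The part of these gaps in the Il33 difference was not tested. In myotubes the genotype difference was 0.95 ± 0.86 (edgeR, adjusted p = 0.597), with 1 mutant library above all 5 wild-type ones and the other below 4 of them.

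Over the 13 libraries, the 5 genes with the pattern most like Il33 were Gm12603, 1700091H14Rik, Nefm (a neurofilament subunit), Tmem171 and Apln (the secreted peptide apelin). Their mean absolute differences from Il33 in mean-centred log2 CPM were 0.449, 0.659, 0.726, 0.751 and 0.799, against a median of 2.471 over all genes. Among the members, Csf1 (1.523) and Cxcl12 (1.765) came nearest. The libraries share stage and depth set, so this is a description.

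Il6 was barely detected outside wild-type myotubes. Its counts were 3 and 3 in dICR/dICR myotubes, against 0, 37, 41, 3 and 1 in wild-type myotubes. They were 1 and 0 in dICR/dICR myoblasts, against 1, 2, 0 and 0 in wild-type myoblasts. In CPM, mutant myotubes had 0.0545 and 0.0713, against 0, 1.07, 0.986, 0.462 and 0.204 in wild-type myotubes, and the groups overlapped because 1 deep wild-type library had no count. Il6 entered the fit only through wild-type myotubes, the higher group of this comparison, so no test of it is given.

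Lif, the second ligand of the Il6st family here, separated the myotubes of the genotypes. It had 1.56 and 1.57 CPM in dICR/dICR myotubes, against 3.73, 5.46, 7.43, 6.31 and 15.3 CPM in wild-type myotubes. It had 3.36 and 1.95 CPM in dICR/dICR myoblasts, against 2.07, 3.38, 2.34 and 2.76 CPM in wild-type myoblasts. Every mutant myotube library was thus below every wild-type myotube library, while the myoblasts overlapped. The log2 difference in myotubes was -2.27 ± 0.55 with an adjusted p of 0.0843 in edgeR. DESeq2 gave an adjusted p of 0.000464 and limma voom 0.0422, and within the deep set the difference was -1.82 with an adjusted p of 0.0581. Without wild-type myotube 2 it was -2.40 with an adjusted p of 0.0299 in edgeR, in a fit that called 5.93% of genes, against 0.556% with it. Without dICR/dICR myotube 1, which leaves a single mutant myotube library, it was -2.27. From myoblasts to myotubes, Lif had a log2 fold change of -0.77 ± 0.59 in dICR/dICR cells (edgeR, adjusted p = 0.482) and, as a description, 1.51 ± 0.40 in wild-type cells. Sums of myotube markers were lower in the mutant myotubes (10500 and 20400 CPM, against 26800 to 42700 CPM). The part of that gap in the Lif difference between genotypes was not tested.

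The 2 CC chemokines lie next to each other on chromosome 11 with no protein-coding gene between them, and both were low. Ccl2 had 2.96 and 0.57 CPM in dICR/dICR myotubes, against 0, 2.49, 3.61, 2 and 0.204 CPM in wild-type myotubes. It had 0.547 and 2.22 CPM in dICR/dICR myoblasts, against 0.97, 1.15, 0.123 and 0 CPM in wild-type myoblasts. The genotypes overlapped in both cell types, and the genotype difference in myotubes was 0.04 ± 1.34 on the log2 scale (edgeR, adjusted p = 0.989). Gm17268 overlaps Ccl2 on the other strand and the strand setting of the counting is not given, so reads of that gene cannot be told apart from Ccl2.

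Ccl7 had 0.0908 and 0.0238 CPM in dICR/dICR myotubes, against 0, 0.607, 3.37, 1.54 and 0 CPM in wild-type myotubes. Its counts in dICR/dICR myoblasts were 1 and 2, against 34, 26, 1 and 1 in wild-type myoblasts. Wild-type myotubes thus held both the highest Ccl7 libraries and libraries with no count. The log2 genotype difference in myotubes was -4.18 ± 1.70 (edgeR, unadjusted p = 0.0296, adjusted p = 0.25). Ccl2 was highest in the same wild-type library, wild-type myotube 3, as Ccl7. That library also had the highest sum of macrophage and leukocyte markers, 18.1 CPM against 3.77 to 9.44 CPM in the other 12 libraries, and the part of these markers in the chemokine values was not tested.

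Cxcl1 and Cxcl5 lie in 1 chemokine cluster on chromosome 5, with 4 protein-coding genes between them. Cxcl1 had 5.25 and 1.47 CPM in dICR/dICR myotubes, against 0.0381, 1.47, 0.433, 0.308 and 0.204 CPM in wild-type myotubes. It had 1.02 and 3.91 CPM in dICR/dICR myoblasts, against 3.3, 3.46, 0.74 and 0.766 CPM in wild-type myoblasts. Wild-type myotube 2 stood above the rest of its group and reached the lower mutant library. The log2 difference between mutant and wild-type myotubes was 2.63 ± 0.96 (edgeR, unadjusted p = 0.0172, adjusted p = 0.206), and 3.67 with an adjusted p of 0.0424 without wild-type myotube 2. That library was the high one of its group, so leaving it out widens the difference. The fit without it called 5.93% of genes, against 0.556% with it.

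Cxcl5 had counts of 16 and 1 in dICR/dICR myotubes, against 1, 31, 5, 1 and 0 in wild-type myotubes. It had no count in either dICR/dICR myoblast library, against 86, 79, 0 and 0 counts in wild-type myoblasts. The 4 shallow myoblast libraries, mutant and wild type, were therefore all at 0, where a count of 0 allows up to 0.235 to 0.46 CPM. The 2 deep wild-type myoblast libraries had 1.6 and 1.54 CPM. No fold is given for dICR/dICR myoblasts. In myotubes the log2 genotype difference was -0.80 ± 1.54 (edgeR, adjusted p = 0.821).

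Cxcl12 separated the genotypes in myotubes. It had 25.3 and 15.3 CPM in dICR/dICR myotubes, against 0.19, 4.19, 0.505, 2 and 1.83 CPM in wild-type myotubes. It had 136 and 38.7 CPM in dICR/dICR myoblasts, against 15, 15.9, 44.2 and 45 CPM in wild-type myoblasts. Both mutant myotube libraries were above all 5 wild-type ones, at a mean of 20.27 ± 7.09 CPM against 1.744 ± 1.58 CPM (SD, n = 2 and n = 5). In myoblasts the groups overlapped and, unlike Il33 and Csf1, the shallow wild-type libraries were the higher ones.

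The log2 difference of Cxcl12 between mutant and wild-type myotubes was 3.55 ± 0.83 with an adjusted p of 0.0815 in edgeR, so it missed the threshold in the model of 4 group means. It was 3.83 ± 0.78 with an adjusted p of 0.0264 under the depth term, and 3.62 ± 0.87 with an adjusted p of 0.0432 within the deep set. DESeq2 gave 3.48 with an adjusted p of 0.00418 and limma voom 4.35 with 0.0371. Fitting the deep libraries apart gave 3.61 with an adjusted p of 0.159, and fitting only the 5 deep myotube libraries gave 3.60 with 0.311, in fits that called 0.709% and 0.0208% of their genes. Without wild-type myotube 2 it was 4.45 with an adjusted p of 0.0105, in a fit that called 5.93% of genes, and without dICR/dICR myotube 1 it was 3.14 with 0.841. In myoblasts the difference was 1.55 ± 0.86 (edgeR, adjusted p = 0.467). From myoblasts to myotubes Cxcl12 changed by -2.11 ± 1.07 in dICR/dICR cells (edgeR, adjusted p = 0.293) and by -4.11 ± 0.77 in wild-type cells, the last as a description. The mutant myotubes also had lower sums of myotube markers (10500 and 20400 CPM, against 26800 to 42700 CPM in wild-type myotubes). The part of that gap in the Cxcl12 difference between genotypes was not tested.

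Cxcl12 is also made by fibroblasts and vessel cells. The fibroblast and fibro-adipogenic markers summed to 604 and 300 CPM in dICR/dICR myotubes, against 528 to 1240 CPM in wild-type myotubes, and edgeR called 0 of 12 tested in this comparison (unadjusted p under 0.05 for 4, against 16.8% of all genes, DESeq2 1, limma voom 1). The smooth muscle and pericyte markers summed to 147 and 212 CPM in dICR/dICR myotubes, against 93.6 to 341 CPM in wild-type myotubes, and edgeR called 0 of 7 (unadjusted p under 0.05 for 2, DESeq2 1, limma voom 0). The endothelial markers summed to 7.65 and 8.25 CPM in dICR/dICR myotubes, against 5.41 to 12 CPM in wild-type myotubes, and edgeR, DESeq2 and limma voom each called 0 of 8, with 0 at an unadjusted p under 0.05. None of the 3 sums was higher in the mutant myotubes than in all wild-type ones. In mutant myotubes the smooth muscle and pericyte sum rested mostly on Notch3 (156 and 51 CPM) and Mcam (41.7 and 73.6 CPM). Wild-type myoblasts also had 38.3 to 120 CPM of Notch3, so this sum is no measure of the number of such cells. Its single markers differed, with 0.145 and 0.642 CPM of Cspg4 in mutant myotubes, against 0.838 to 41.7 CPM in wild-type myotubes. The fibroblast sum rested mostly on Col3a1, Col1a2 and Tcf4, and Tcf4 alone had 209 and 160 CPM in dICR/dICR myotubes. Tcf4 was listed by its symbol and is not a specific fibroblast marker. The sum and the 12 tested genes thus include a gene that does not mark these cells. Tcf4 also differed by stage in wild-type cells, with means of 220 CPM in myotubes and 109 CPM in myoblasts. This sum is therefore no measure of the number of fibroblasts. Single markers of the fibroblast list went different ways. Ly6a, a marker of fibro-adipogenic cells, had 46.2 and 11 CPM in dICR/dICR myotubes, against 0.305, 7.2, 2.12, 0.616 and 0 CPM in wild-type myotubes. Its log2 difference was 3.69 ± 1.06 (edgeR, adjusted p = 0.126), and 3.44 ± 0.97 with an adjusted p of 0.079 under the depth term. Pdgfra and Mfap5 of the same list were lower in both mutant myotube libraries than in all 5 wild-type ones. For Pdgfra the log2 difference was -2.59 ± 1.10 (edgeR, adjusted p = 0.266). Mfap5 had 0.0182 and 0.0713 CPM in dICR/dICR myotubes, against 0.114 to 3.22 CPM in wild-type myotubes. It entered the fit only through wild-type myotubes, the higher group, so no test of it is given. The counts above keep it among the 12 tested. The part of Ly6a-bearing cells in the Cxcl12 values was not tested. In bulk RNA, fewer cells of a type and less RNA per cell cannot be told apart.

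Csf1 had 37.5 and 64.5 CPM in dICR/dICR myotubes, against 22.5, 108, 75.1, 51.9 and 36.7 CPM in wild-type myotubes. It had 172 and 115 CPM in dICR/dICR myoblasts, against 494, 486, 219 and 205 CPM in wild-type myoblasts. Both mutant myoblast libraries were below all 4 wild-type ones, and the myotubes overlapped. In myoblasts the log2 genotype difference was -1.29 ± 0.61 (edgeR, unadjusted p = 0.0545, adjusted p = 0.42), and within the shallow set it was -0.56. From myoblasts to myotubes, the log2 fold change was -1.49 ± 0.67 in dICR/dICR cells (edgeR, unadjusted p = 0.0461, adjusted p = 0.257), and -2.39 ± 0.65 with an adjusted p of 0.0436 under the depth term. In wild-type cells it was -2.58 ± 0.45, as a description.

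Il15 had 1.04 and 0.356 CPM in dICR/dICR myotubes, against 0.0762, 0.289, 0.192, 0.308 and 1.22 CPM in wild-type myotubes. It had 0.782 and 0.652 CPM in dICR/dICR myoblasts, against 1.16, 1.2, 0.37 and 0.306 CPM in wild-type myoblasts. The groups overlapped in both cell types. The log2 genotype difference was 1.05 ± 0.85 in myotubes (edgeR, adjusted p = 0.543) and -0.18 ± 0.91 in myoblasts (edgeR, adjusted p = 0.953).

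**Figure D2:**
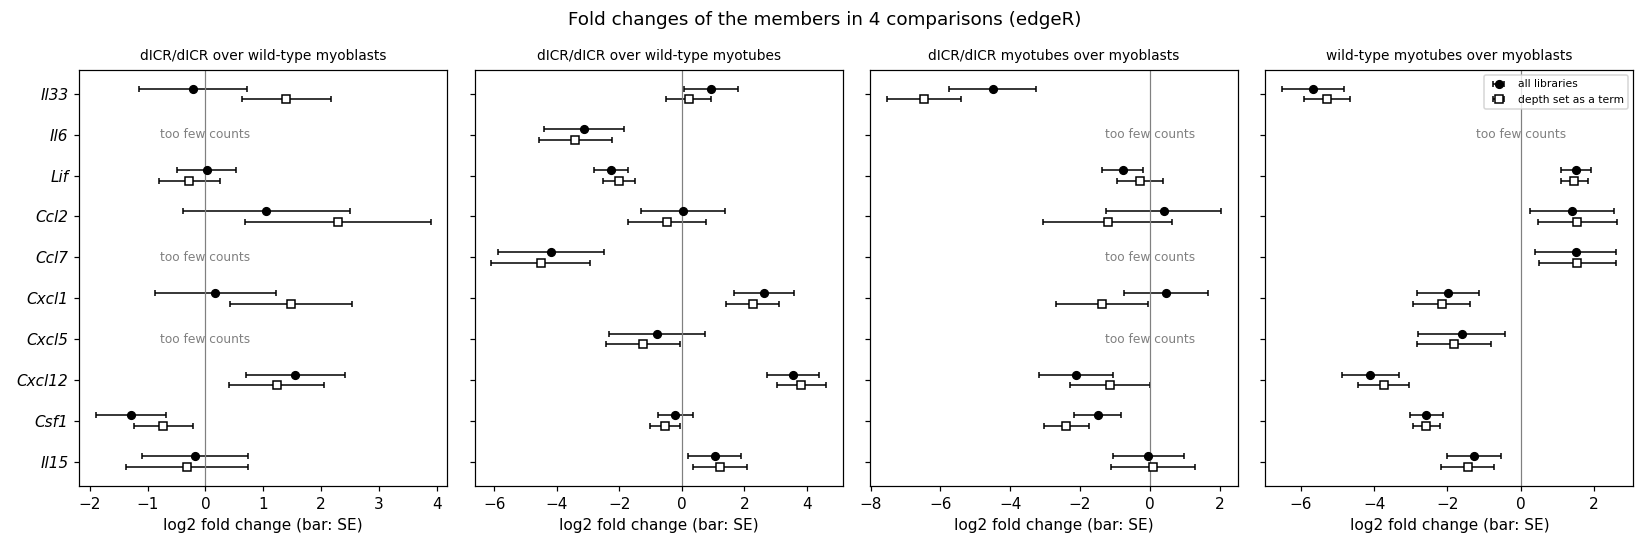
Log2 fold change of each member in 4 comparisons, with its standard error, from the model of 4 group means (filled circles) and with the depth term added (open squares). Entries with a group of at most 3 counts in all are left out. In myotubes, Cxcl12 (3.55) and Lif (-2.27) lie farthest from 0 relative to their errors, and in dICR/dICR differentiation Il33 does (-4.51, or -6.47 with the depth term).

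Counted over the 10 members, edgeR called 0 for genotype in myoblasts, where 0.0302% of all genes passed, and 0 had an unadjusted p under 0.05, against 12.1% of all genes. DESeq2 and limma voom also called 0 there, against 2.68% and 0.0544% of genes. With the depth term edgeR called 0, against 2.01% of genes, and within the shallow set 0, against 5.25%. For genotype in myotubes edgeR called 0, against 0.556% of genes, and 4 members had an unadjusted p under 0.05 (Cxcl12, Cxcl1, Lif and Ccl7, leaving out Il6), against 16.8% of all genes. DESeq2 and limma voom each called 2 of them, Cxcl12 and Lif, against 6.52% and 2.66% of genes. EdgeR called 1, Cxcl12, with the depth term (2.57% of genes) and 1 within the deep set (3.63%).

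For differentiation in dICR/dICR cells edgeR called 0 of the 10, against 0.145% of genes, and 2 had an unadjusted p under 0.05, against 19.2% of all genes. DESeq2 called 1, Il33, against 7.03% of genes, and limma voom called 0, against 0.593%. With the depth term edgeR called 2, Il33 and Csf1, both lower in myotubes, against 7.63% of genes. Groups did not overlap for 1 member in the myoblast comparison, 2 in the myotube comparison and 5 in dICR/dICR differentiation, while 28.5%, 19.3% and 59% of all genes did so in the same order of comparisons. The members' shares were close to or below those of all genes. The median log2 fold change of the members was -0.08, -0.08 and -0.41 in that order, against -0.0588, -0.0562 and 0.0023 over all genes.

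**Figure D3:**
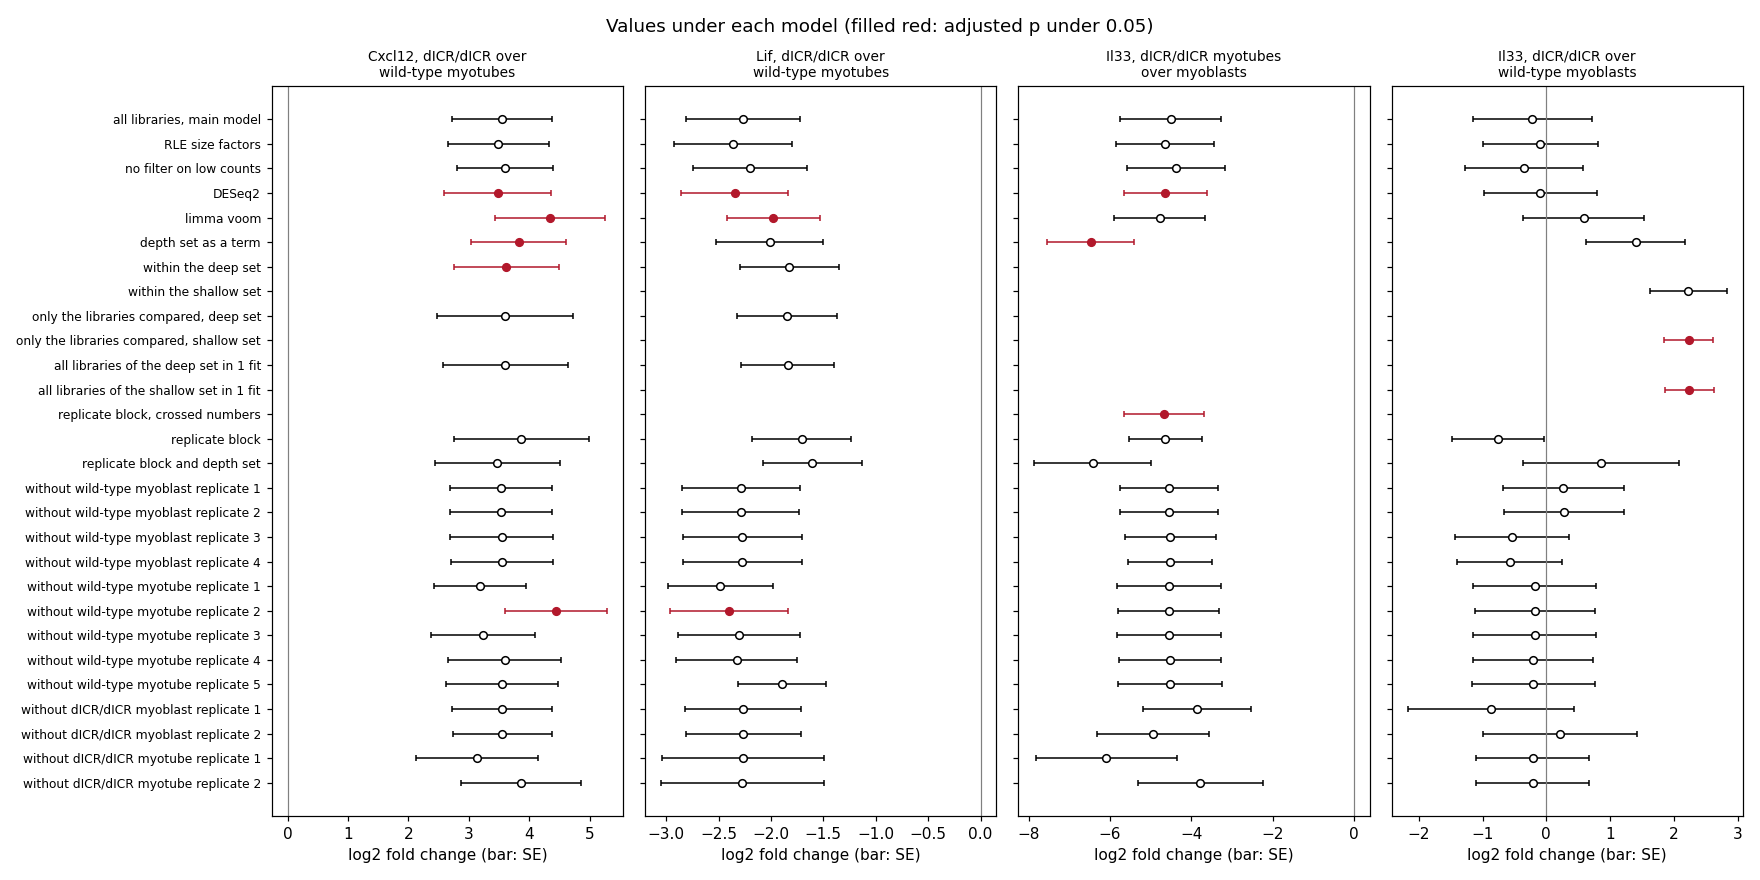
Log2 fold change with its standard error for Cxcl12 and Lif in mutant against wild-type myotubes and for Il33 in mutant differentiation and in mutant against wild-type myoblasts, with 1 line per model or left-out library. Filled red points had an adjusted p under 0.05. Cxcl12 stays between 3.14 and 4.45, whereas Il33 in myoblasts changes sign between -0.87 and 2.24.

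Of 16 receptors of these ligands, 13 were tested, and edgeR called 0 of them in the 3 comparisons without a depth term. Of the 13, an unadjusted p under 0.05 was found for 4 in genotype in myoblasts, 3 in genotype in myotubes and 3 in dICR/dICR differentiation, against 12.1%, 16.8% and 19.2% of all genes. DESeq2 called 2, 1 and 2 in the same order, against 2.68%, 6.52% and 7.03% of all genes. Limma voom called 0, 0 and 1, against 0.0544%, 2.66% and 0.593%. These shares, and those at unadjusted p, apply also to the counts of the other lists above and below. Some receptors that immune cells carry were low: Csf1r had at most 1.39, Ccr2 at most 0.407, Ccr1 at most 0.37 and the Il33 receptor Il1rl1 at most 1.69 CPM in any library. Others that immune cells also carry reached higher levels, with up to 12.6 CPM of Il15ra, 8.63 CPM of Cxcr2, 5.48 CPM of Cxcr4 and 2.09 CPM of Il2rb. Il6st, the shared chain for Il6 and Lif, was the highest and had 207 and 260 CPM in dICR/dICR myotubes, against 113 and 87.8 CPM in dICR/dICR myoblasts. Its log2 fold change was 1.22 ± 0.27 (edgeR, adjusted p = 0.0726), and 1.40 ± 0.28 with an adjusted p of 0.0128 with the depth term. Wild-type myotubes had 241 to 322 CPM of Il6st, against 116 to 162 CPM in wild-type myoblasts.

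Ackr3, which binds and removes Cxcl12, lay lower in both mutant myoblast libraries than in all 4 wild-type ones. It is listed under its older symbol Cxcr7 and had 26 and 13.7 CPM in dICR/dICR myoblasts, against 108, 111, 69 and 69.6 CPM in wild-type myoblasts. The log2 difference was -2.17 ± 0.52 (edgeR, adjusted p = 0.164). It passed with the depth term, at -1.71 ± 0.40 and an adjusted p of 0.0486, and within the shallow set, at -1.80 ± 0.43 and 0.0355. Cxcr4, the signalling receptor of Cxcl12, had 1.67 and 1.81 CPM in dICR/dICR myotubes, against 0.815 to 5.48 CPM in wild-type myotubes. Cxcr2, the receptor of Cxcl1 and Cxcl5, followed the depth set, with 2.36 to 8.63 CPM in the 7 deep libraries and 0 to 0.815 CPM in the 6 shallow ones, and Il15ra had its highest level, 12.6 CPM, in dICR/dICR myoblast 2.

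**Figure D4:**
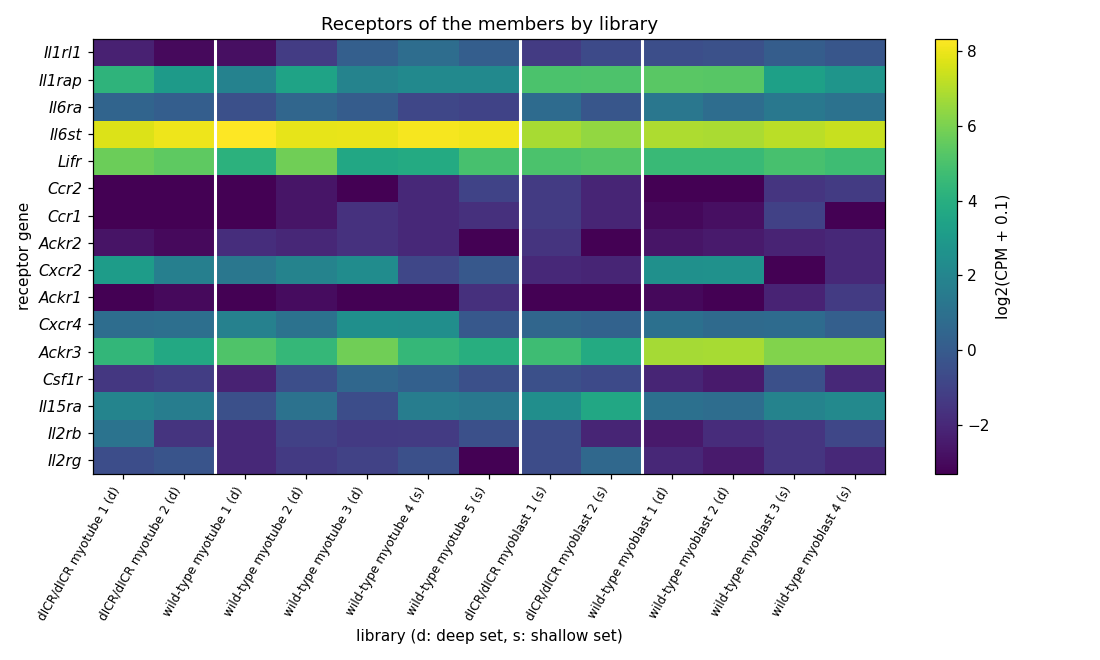
Level of 16 receptor genes in each library as log2(CPM + 0.1), with libraries grouped by genotype and stage and marked d for deep and s for shallow. Il6st is the brightest line in every library, and Ackr3 is brighter in wild-type myoblasts (69 to 111 CPM) than in dICR/dICR myoblasts (13.7 and 26 CPM).

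Of 35 other cytokines and chemokines, 34 were in the table and 22 were tested, and edgeR called 0 in the 3 comparisons without a depth term. An unadjusted p under 0.05 was found for 2 in genotype in myoblasts, 1 in genotype in myotubes and 8 in dICR/dICR differentiation, where DESeq2 called 1, 1 and 4 and limma voom 0 in each. Tnfsf11, the RANK ligand, had 0.0182 and 0 CPM in dICR/dICR myotubes, against 0.114 to 2.75 CPM in wild-type myotubes. Its adjusted p in edgeR was 0.0727, and 0.0412 with the depth term, so the call depended on the model. The mutant value rests on 1 count, and no fold is given. As a description, 3 of the 22 were called lower in wild-type myotubes than in wild-type myoblasts: Il18, Il11 and Il34, the last a second ligand of Csf1r. Of all genes, 19.1% were called in either direction in this contrast, so nothing is read from the count. Il34 had 2.51 to 7.86 CPM in wild-type myotubes, against 14.9 to 38.1 CPM in wild-type myoblasts, and 7.83 and 4.11 CPM in dICR/dICR myotubes, against 15.6 and 16.6 CPM in dICR/dICR myoblasts.

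All 32 genes of the NF-kB and STAT pathways were tested, and edgeR called 0 in the 3 comparisons without a depth term. An unadjusted p under 0.05 was found for 1 in genotype in myoblasts, 1 in genotype in myotubes and 6 in dICR/dICR differentiation, where DESeq2 called 0, 0 and 2 and limma voom 0 in each. Stat3, the factor that Il6 and Lif activate, had 170 and 118 CPM in dICR/dICR myotubes, against 43.3 and 55.8 CPM in dICR/dICR myoblasts. Its log2 fold change was 1.54 ± 0.37 (edgeR, adjusted p = 0.0812), and 1.72 ± 0.42 with an adjusted p of 0.0287 with the depth term. As a description, 4 of the 32 were called higher in wild-type myotubes than in wild-type myoblasts (Stat3, Relb, Rel and Chuk) and 3 lower (Jak2, Socs1 and Socs2). In this contrast 19.1% of all genes were called, so nothing is read from the counts. The median log2 fold change of the 32 genes lay between -0.15 and 0.02 in the 4 comparisons.

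Macrophages and leukocytes are another source of some of these factors. Their markers summed to 4.44 and 6.18 CPM in dICR/dICR myotubes, against 3.77 to 18.1 CPM in wild-type myotubes. In dICR/dICR myoblasts the sums were 8.44 and 8.99 CPM, and in wild-type myoblasts 6.41 to 9.44 CPM. Tyrobp was at 0 in all 4 mutant libraries, Aif1 in the mutant myoblasts and Cd52 in the mutant myotubes, and each was also at 0 in some wild-type libraries. Single markers went different ways. Cd14 had 1.02 and 0.523 CPM in dICR/dICR myotubes, against 0.114 to 0.308 CPM in wild-type myotubes. Cd68 had 2.71 and 2.26 CPM, against 0.923 to 2.04 CPM. Itgam had 0.527 and 0.309 CPM, against 1.33 to 2.31 CPM. Within the deep set edgeR called Cd14 higher (adjusted p = 0.0393) and Itgam lower (adjusted p = 0.0318). Of 9 such markers tested, edgeR called 0 in each of the 3 comparisons without a depth term. An unadjusted p under 0.05 was found for 0 in genotype in myoblasts, 4 in genotype in myotubes and 1 in dICR/dICR differentiation, DESeq2 called 0, 1 and 0, limma voom 0, 1 and 0, and their part in the low chemokine values was not tested. All 9 myoblast markers averaged at least 1 CPM in each group, as did all 10 myotube markers.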

How the data were processed

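RNA-seq counts of 13 libraries in 4 groups were used. The authors deposited raw whole-number counts per gene. TopHat2, the mm9 build and HTSeq are named in the submitters' processing notes. Not given in the sources used here are their versions, the annotation, the strand setting and which library ran on which platform. The members and lists were chosen with earlier results of these data known. All 23366 rows name a gene, and no column was left unused. The series text gives 2 to 3 replicates per group, and the 13 libraries were used as labelled. Replicates differed by more than counting error in each of 18 pairs (chi-square per degree of freedom 4.67 to 368.84). Wild-type myoblasts 1 and 2 had 39.81 and wild-type myoblasts 3 and 4 had 4.67, against 363.46 to 368.84 across these pairs. Wild-type myotubes 4 and 5 had 21.91, against 245.88 to 324.14 in the other pairs of that group. The dICR/dICR myoblasts, both shallow, had 34.34, and the dICR/dICR myotubes, both deep, had 249.17.

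Genes were filtered in R 4.3.3 with edgeR 4.0.16 filterByExpr (minimum count 10, minimum total 15), which left 16537. TMM factors and 1 quasi-likelihood model with 4 group means over 13 libraries were used, so the dICR/dICR pairs share the spread of the larger groups. Tests were two-sided with Benjamini-Hochberg adjustment over all genes and a threshold of 0.05. CPM were computed with TMM-adjusted totals, and log values per library with a prior count of 2. Depth sets were divided at 20 M counts and entered as a term or as means per group and set in the same model. Alternatives were RLE size factors, no filter, DESeq2 1.42.0, limma 3.58.1 voom, the replicate number as a block and leaving out each library. Named genes were all members, listed genes called outside wild-type differentiation, the receptors, and the 5 genes most like Il33. Exon lengths came from GENCODE M21, used for lengths and neighbours and not for positions. Figures and tables were made with Python 3.11.15.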

Additional observations from a re-analysis of the deposited data

Results flagged for a closer look

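In 3 of 20 groups of 4 or 5 libraries, 1 library lay apart from the rest by Dixon's criterion, which chance meets in about 1 of 20 groups. Cxcl1 had 1.47 CPM in wild-type myotube 2, against 0.0381 to 0.433 CPM in the other 4 libraries of its group. Cxcl5 had 0.896 CPM in the same library, against 0 to 0.154 CPM in the others. Il15 had 1.22 CPM in wild-type myotube 5, on 6 counts, against 0.0762 to 0.308 CPM in the others.

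Lif had opposite signs between stages in the genotypes. Both dICR/dICR myotube libraries were below both dICR/dICR myoblast libraries (log2 fold change -0.77), and all 5 wild-type myotube libraries were above all 4 wild-type myoblast libraries (1.51). With the depth term the mutant change was -0.27 ± 0.65 (edgeR, adjusted p = 0.837). Depth and stage cannot be told apart in the mutant cells, and 59% of all genes did not overlap in that comparison. The lower mutant myoblast library had 15 counts of Lif. The difference between the changes of the genotypes was not tested.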

How the results depend on the processing

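Main values come from edgeR over all 13 libraries, and fits that take the libraries of 1 depth set apart, or cross the replicate numbers, were chosen after seeing the data. For genotype in myoblasts, 0 members were called, and 1 (Il33) when only the shallow libraries compared, or all shallow libraries, were fitted. For genotype in myotubes, 0 were called, 2 by DESeq2 and by limma voom (Cxcl12 and Lif), 1 with the depth term and within the deep set (Cxcl12), and 0 to 3 with single libraries left out, the 3 being Cxcl1, Cxcl12 and Lif without wild-type myotube 2. For dICR/dICR differentiation, 0 were called, 1 by DESeq2 (Il33), 2 with the depth term (Il33 and Csf1), and 0 with any library left out. The replicate number as a block, with or without the depth term, called 0 members in all 3 comparisons. The deviations of same-numbered samples correlated at 0.427, 0.518, -0.411 and 0.517 for numbers 1 to 4 in wild-type differentiation, where number 3 joins a deep and a shallow library, and between -0.388 and 0.08 in the other comparisons. Not every pair was over 0.1, so the samples were taken to share only a number. Over all genes the block called 0, 3 and 100 for genotype in myoblasts, genotype in myotubes and dICR/dICR differentiation, against 5, 92 and 24 without it. In dICR/dICR differentiation crossed numbers called 1046 genes, 1 member among them. Fits within 1 set for dICR/dICR differentiation could not be made, since no set holds both stages. The cause of these shifts was not tested.

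Signs turned mostly for members with few counts or an SE larger than the value. In log2 units for genotype in myoblasts, Il33 was 0.59 with voom, 1.40 with the depth term, 2.23 within the shallow set and in its fit of the libraries compared, 2.24 in the fit of all shallow libraries and 0.86 with block and depth term. Lif was -0.07 without the filter and -0.28 with the depth term, Cxcl1 -0.28 with voom and -0.42 with the block. Within the shallow set Il15 was 1.08. With block and depth term Cxcl12 was -0.83 and Il15 0.65. For genotype in myotubes, Il33 was -0.45 with the block and -0.12 with block and depth term. Ccl2 was -0.03 with RLE factors, -0.47 with the depth term, -0.21 within the deep set, -0.23 in both fits of deep libraries and -0.10 with the block. For dICR/dICR differentiation, the depth term gave Ccl2 -1.21, Cxcl1 -1.37 and Il15 0.09. Block and depth term gave Ccl2 -3.29, Cxcl1 -0.61 and Cxcl12 1.01. Il15 was 0.08 without the filter. No fold is followed where a group held at most 3 counts.

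Leaving out single libraries spanned 0 in myoblasts for Il33 (-0.87 to 0.28), Lif (-0.44 to 0.34), Ccl2 (-0.24 to 1.76), Cxcl1 (-1.08 to 0.85) and Il15 (-0.38 to 0.14). It did so in myotubes for Il33 (-0.63 to 1.68), Ccl2 (-1.58 to 0.79), Cxcl5 (-3.31 to 0.86) and Csf1 (-0.65 to 0.13). In dICR/dICR differentiation it did so for Ccl2 (-1.24 to 1.69), Cxcl1 (-0.73 to 1.73) and Il15 (-1.01 to 0.52).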

Other observations

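Wild-type myotube 2 also held the highest level of several other listed cytokines and chemokines, named here after their values were seen. The chemokine Cxcl10 had 7.34 CPM in that library, against 0.0381 to 3.26 CPM in the other 12, and Ccl5 had 4.63 CPM, against 0 to 1.73 CPM. Tnfsf11 had 2.75 CPM there, against 0 to 1.15 CPM. The fibroblast and fibro-adipogenic markers, Tcf4 included, summed to 1240 CPM in the same library, against 256 to 771 CPM elsewhere. With that library left out, edgeR called 919 genes for genotype in myotubes, against 92 with it.

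The depth sets of wild-type myoblasts differed in other listed genes too, also named after their values were seen. Il1rap, the co-receptor of Il33, had 40.2 and 39.2 CPM in the 2 deep libraries and 9.62 and 6.74 CPM in the 2 shallow ones. Cx3cl1, a membrane-bound chemokine, had 26.5 and 28.5 CPM in the deep and 3.58 and 2.45 CPM in the shallow libraries, and Socs2 had 89.3 and 86.6 CPM in the deep and 15.5 and 11.8 CPM in the shallow ones.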
